A study of Homo sapiens with 6 samples.

Results

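The genes that build cholesterol and fatty acids were examined in T47D cells treated with GDC-0941. The set was a list of 37 genes of these pathways, taken by their current symbols, and 33 of them were measured among the 19775 genes of the array. The platform annotation used here names no probe set for FDFT1 or ACSL3, and those of CYP51A1 and FADS1 each name several genes, so these 4 genes were not analysed here. T47D is a widely used breast cancer cell line with luminal, hormone receptor positive features, and GDC-0941 blocks the class I PI3 kinases, which act upstream of AKT. The treated group consisted of 3 arrays from T47D cells exposed to GDC-0941 for 6 hours, at a dose that the labels write as 1 mM. The control group consisted of 3 arrays from T47D cells for which the labels give no agent, without saying whether solvent was added. The unit of the dose is given as written and is in doubt, because a micro sign can be lost in such a label. All cells were of this cell line and grew in the same serum-containing medium. Whether the replicates were separate cultures is not stated, so the p-values below measure the spread between these arrays, which may be technical. The comparison asks how these genes respond when PI3 kinase signalling is inhibited.

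Cells make cholesterol from acetyl-CoA through mevalonate, farnesyl diphosphate and squalene, and they make fatty acids from acetyl-CoA through malonyl-CoA. Both routes are driven by the SREBP transcription factors. SREBF2 mainly controls the cholesterol genes, and SREBF1 mainly controls the fatty acid genes. The SREBP precursors sit in the endoplasmic reticulum bound to SCAP, and INSIG1 and INSIG2 hold this complex there when sterols are plentiful. AKT and mTORC1 are known to favour SREBP activation, which links these pathways to PI3 kinase.

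Of the 33 measured genes, 8 fell and 5 rose after GDC-0941 at an adjusted p under 0.05. Those are 13 called genes, 39.4% of the 33, where 27.8% of all genes tested were called. Among all genes, 15.6% were called lower and 12.1% higher. Of the 33 members, 32 lay above the level of the median gene. When only genes above the median level were tested, 19 of these 32 were called, beside 54.6% of all such genes. The changes of the 13 called genes were small, between 1.15-fold and 1.51-fold. The median log2 difference was -0.02 both over the 33 genes and over all genes. INSIG1, the sterol-sensing retention factor, had the largest rise, and ACAT2, the thiolase at the entry of the mevalonate pathway, had the largest fall. In all 13 called genes and in 9 of the 20 others the treated arrays did not overlap the controls, which makes 66.7% of the members against 41.5% of all genes. The 20 genes that were not called differed by -0.16 to 0.20 on the log2 scale, and their 95% intervals reached from -0.30 to 0.38 at the widest. All differences are GDC-0941 minus control on the log2 scale, each gene was read from its brightest probe set that names no other gene, and an adjusted p is Benjamini-Hochberg adjusted over all genes in the limma fit.

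**Figure D1:**
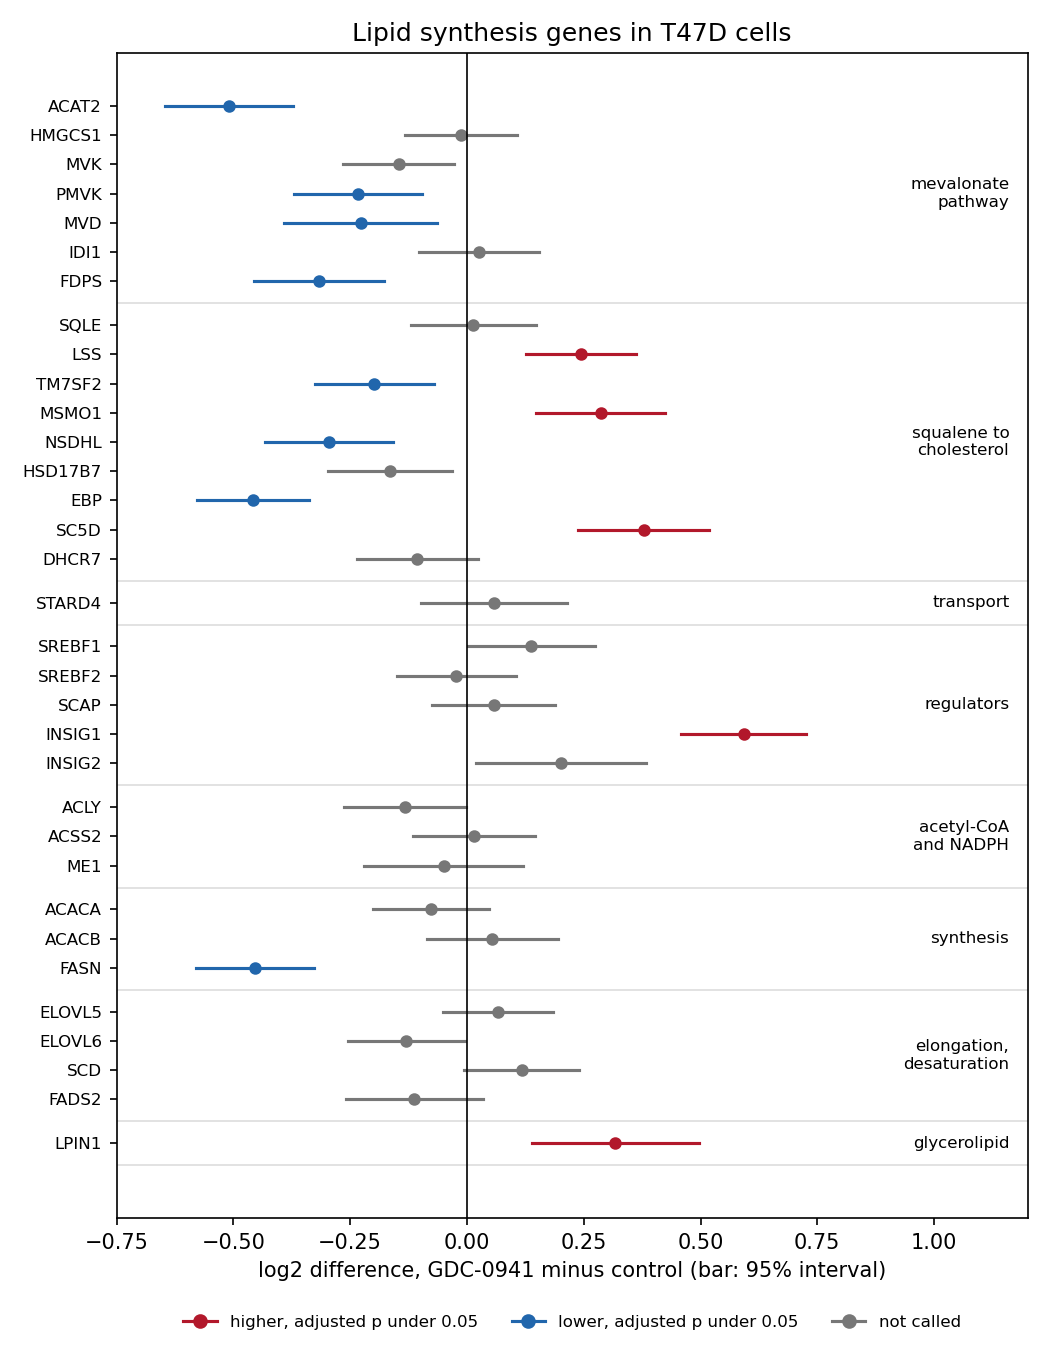
Log2 difference (GDC-0941 minus control, x axis) of the 33 measured genes, grouped by role, with its 95% interval in limma. Red marks the 5 genes called higher, blue the 8 called lower and grey the 20 not called. The mevalonate genes lie at or left of 0 except IDI1, and the later sterol genes lie on both sides.

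The measured levels depend on how the arrays are brought to a common scale. With the authors' RMA values, 43.7% of all called genes were higher. With each array centred on its 18 spiked hybridisation control probe sets, 86.4% were higher, and the median over all genes was 0.15 in place of -0.02. In that scaling 9 members were higher and 3 lower, the 3 being ACAT2, EBP and FASN. Directions below are therefore relative to the rest of the transcripts measured.

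Among the 5 regulators, INSIG1 rose, and the other 4 did not pass the test (20% called, beside 27.8% of all genes). With the spiked-control centring and with array weights, INSIG1, INSIG2 and SREBF1 were called higher (60%, beside 33.3% and 35.9% of all genes). Among genes above the median level 3 of the 5 were higher, where 54.6% of all such genes were called. INSIG1 had log2 signals of 10.79, 10.72 and 10.76 under GDC-0941, against 10.11, 10.11 and 10.26 in controls. Its 3 treated arrays all lay above its 3 controls by more than either group's spread. The log2 difference was 0.59 ± 0.06 (SE, n = 3 each; limma adjusted p = 3.03e-05), a 1.51-fold rise, and all 3 probe sets of INSIG1 were called higher, with differences of 0.36 to 0.70. INSIG1 is itself a target of the SREBPs, and its protein is degraded when sterols run low.

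INSIG2, the second retention factor, had 8.51, 8.20 and 8.44 under GDC-0941, against 8.13, 8.12 and 8.30 in controls. The groups overlapped, and its difference of 0.20 ± 0.08 (SE, n = 3 each; limma adjusted p = 0.0989) was not called. It was called without GDC-0941 replicate 2 (limma adjusted p = 0.0159) and without control replicate 3 (limma adjusted p = 0.0466). INSIG2 was also called with the spiked-control centring (limma adjusted p = 0.000957) and with array weights (limma adjusted p = 0.00595).

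SREBF1, which encodes the factor for the fatty acid genes, had 11.36, 11.25 and 11.38 under GDC-0941, against 11.13, 11.17 and 11.27 in controls. The lowest treated array was below the highest control, and the difference of 0.14 ± 0.06 (SE, n = 3 each) had an adjusted p of 0.131 in limma. SREBF1 was called higher with a repeated quantile normalization (limma adjusted p = 0.0323), array weights (limma adjusted p = 0.0117) and the spiked-control centring (limma adjusted p = 0.00745). SREBF2, which encodes the factor for the cholesterol genes, had 10.21, 10.09 and 10.08 under GDC-0941, against 10.13, 10.14 and 10.17 in controls. Its groups overlapped, the difference was -0.02 with a 95% interval of -0.15 to 0.11, and a dimmer SREBF2 probe set was called higher by 0.21. SCAP, the escort of both precursors, had 10.44, 10.31 and 10.45 under GDC-0941, against 10.33, 10.30 and 10.39 in controls. These also overlapped, with a difference of 0.06 and a 95% interval of -0.08 to 0.19.

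The promoters of these genes were compared through RefSeq sequences of 250 bases before to 50 bases after an annotated start (GRCh38.p14). An entry existed for 33 of the 37 listed genes, and ACAT2, FASN, SQLE and FDFT1 had none. The motifs CCAAT and TCACNCCAC were searched on both strands, and neither contains the other. CCAAT is the box read by NF-Y, a common partner of the SREBPs, and TCACNCCAC stands for the sterol regulatory element. The letters CCAAT occurred in a promoter of 24 of the 33 genes (72.7%), where 41.7% of the genes on the array with an entry hold them. Counted by promoter, it was 28 of 47 (59.6%) for these genes and 34.6% of all 35116 promoters. The share was 87.5% for the cholesterol genes (14 of 16) and 66.7% for the fatty acid genes (8 of 12). CCAAT stood in 4 of the 5 genes that rose and in 5 of the 6 genes with an entry that fell, so it occurred on both sides of the response. It also stood in 14 of the 19 genes with an entry that were not called (73.7%). TCACNCCAC occurred in the promoter of SREBF2 alone among these genes and in 1.13% of all promoters. The elements of many SREBP targets have other letters, which this search does not see. The promoters of the 5 genes below are shown because they stand for the regulator that rose (INSIG1), a sterol enzyme that rose (MSMO1), enzymes of both cholesterol stages that fell (EBP and FDPS) and the factor of the pathway itself (SREBF2). They run 5′ to 3′ on the plus strand, and capitals mark CCAAT on either strand (ATTGG where it lies on the other strand) and TCACNCCAC.
INSIG1 (chr7:155297628-155297927): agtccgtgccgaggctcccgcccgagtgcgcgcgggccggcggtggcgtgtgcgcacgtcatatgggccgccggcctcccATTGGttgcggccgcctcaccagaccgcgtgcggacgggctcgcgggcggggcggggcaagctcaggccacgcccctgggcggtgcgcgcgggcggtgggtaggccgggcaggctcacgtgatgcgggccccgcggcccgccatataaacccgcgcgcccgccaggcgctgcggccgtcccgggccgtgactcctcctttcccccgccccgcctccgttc
MSMO1 (chr4:165327419-165327718): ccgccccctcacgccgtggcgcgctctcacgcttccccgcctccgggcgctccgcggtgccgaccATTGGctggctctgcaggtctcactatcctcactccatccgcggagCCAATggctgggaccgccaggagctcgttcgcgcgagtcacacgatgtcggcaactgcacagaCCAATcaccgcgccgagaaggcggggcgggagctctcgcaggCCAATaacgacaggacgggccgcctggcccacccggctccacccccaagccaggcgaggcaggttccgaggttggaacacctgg
EBP (chrX:48521558-48521857): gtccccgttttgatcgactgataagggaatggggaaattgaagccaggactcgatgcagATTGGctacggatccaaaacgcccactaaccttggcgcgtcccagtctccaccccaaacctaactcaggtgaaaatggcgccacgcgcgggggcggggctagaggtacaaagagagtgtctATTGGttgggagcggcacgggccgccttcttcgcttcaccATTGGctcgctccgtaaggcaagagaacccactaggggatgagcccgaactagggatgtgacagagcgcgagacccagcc
FDPS (chr1:155308616-155308915): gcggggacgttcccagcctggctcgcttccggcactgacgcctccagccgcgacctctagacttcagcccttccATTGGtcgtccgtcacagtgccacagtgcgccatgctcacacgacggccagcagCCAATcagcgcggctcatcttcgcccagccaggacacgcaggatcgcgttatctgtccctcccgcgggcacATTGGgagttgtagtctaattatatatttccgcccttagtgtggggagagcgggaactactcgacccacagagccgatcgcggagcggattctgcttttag
SREBF2 (chr22:41832855-41833154): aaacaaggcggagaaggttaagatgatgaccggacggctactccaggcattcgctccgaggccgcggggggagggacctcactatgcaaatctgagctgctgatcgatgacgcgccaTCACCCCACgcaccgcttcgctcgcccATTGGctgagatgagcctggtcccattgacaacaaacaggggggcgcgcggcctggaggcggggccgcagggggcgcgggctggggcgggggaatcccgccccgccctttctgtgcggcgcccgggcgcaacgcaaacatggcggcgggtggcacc
MSMO1 held 4 copies of CCAAT, EBP and FDPS 3 copies each, and INSIG1 and SREBF2 1 copy each. These 5 promoters were picked, so their copy numbers do not compare rising with falling genes. A match is a description of the letters and not evidence that a factor binds there.

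In the mevalonate pathway, from acetyl-CoA to farnesyl diphosphate, 4 of 7 measured enzymes fell and none rose, where 15.6% of all genes were called lower and 27.8% called in all, and the median difference was -0.23. ACAT2, which condenses a pair of acetyl-CoA molecules, had 10.43, 10.29 and 10.38 under GDC-0941, against 10.90, 10.79 and 10.93 in controls. Every treated array was below every control, in the only probe set of ACAT2, which is marked as matching several transcripts. The difference was -0.51 ± 0.06 (SE, n = 3 each; limma adjusted p = 9.72e-05), 1.42-fold lower, and it was -0.34 with the arrays centred on the spiked controls.

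FDPS, farnesyl diphosphate synthase, had 11.20, 11.01 and 11.10 under GDC-0941, against 11.44, 11.36 and 11.45 in controls. The groups did not overlap, and the difference was -0.32 ± 0.06 (SE, n = 3 each; limma adjusted p = 0.00265). PMVK, phosphomevalonate kinase, had 11.00, 10.87 and 10.99 under GDC-0941, against 11.12, 11.18 and 11.26 in controls. MVD, the decarboxylase of the next step, had 8.75, 8.50 and 8.69 under GDC-0941, against 8.87, 8.79 and 8.97 in controls. Both fell without overlap, PMVK by 0.23 (limma adjusted p = 0.0146) and MVD by 0.23 (limma adjusted p = 0.0407), with GDC-0941 replicate 2 the lowest array in each. The PMVK call was lost without that array (limma adjusted p = 0.0501) and without control replicate 3 (limma adjusted p = 0.0584). The MVD call was lost without any of GDC-0941 replicates 2 and 3 and control replicates 1 and 3 (limma adjusted p 0.065 to 0.137), and its probe set did not pass among all 54613 probe sets (limma adjusted p = 0.0673). The calls of FDPS, PMVK and MVD were all lost with the spiked-control centring, where the differences were -0.15, -0.06 and -0.06.

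HMGCS1, HMG-CoA synthase and a standard readout of SREBF2 activity, had 9.87, 9.80 and 9.87 under GDC-0941, against 9.85, 9.84 and 9.89 in controls. The groups overlapped, and the 95% interval of its difference ran from -0.13 to 0.11. MVK, mevalonate kinase, had 10.86, 10.84 and 10.88 under GDC-0941, against 10.98, 11.05 and 11.00 in controls. These groups did not overlap, yet the difference of -0.15 missed the threshold (limma adjusted p = 0.066), while 2 of its 3 other probe sets were called lower by 0.24 and 0.28. IDI1, the isomerase that makes the second isoprene unit, had 12.30, 12.20 and 12.26 under GDC-0941, against 12.18, 12.20 and 12.29 in controls. That is an overlap, with a difference of 0.03 and an interval of -0.10 to 0.15, in a probe set marked as matching several transcripts. A much dimmer probe set of IDI1 was called higher by 0.39.

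In the steps from squalene to cholesterol, 3 of 9 measured enzymes rose and 3 fell (66.7% called, beside 27.8% of all genes), and the median difference was -0.11. The 3 that rose were LSS (lanosterol synthase, which closes the sterol rings), MSMO1 (the methylsterol oxidase) and SC5D (a sterol desaturase near the end). LSS had 11.44, 11.44 and 11.43 under GDC-0941, against 11.19, 11.16 and 11.23 in controls. MSMO1 had 11.39, 11.20 and 11.26 under GDC-0941, against 11.00, 10.96 and 11.03 in controls. SC5D had 11.76, 11.74 and 11.68 under GDC-0941, against 11.37, 11.24 and 11.44 in controls. In each of them every treated array was above every control. The differences were 0.24 ± 0.05 for LSS (limma adjusted p = 0.00468), 0.29 ± 0.06 for MSMO1 (limma adjusted p = 0.00485) and 0.38 ± 0.06 for SC5D (limma adjusted p = 0.000927; SE, n = 3 each). The brightest probe set carried 2 of these calls, as the other probe sets of LSS differed by 0.04 and 0.12 and that of SC5D by 0.12, without passing. MSMO1 has 1 probe set, and its call held without each array in turn. With the spiked-control centring the differences were 0.41 for LSS, 0.46 for MSMO1 and 0.55 for SC5D.

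The 3 that fell were TM7SF2 (a sterol reductase), NSDHL (which acts in the same demethylation as MSMO1) and EBP (the sterol isomerase). EBP had 11.38, 11.30 and 11.31 under GDC-0941, against 11.77, 11.78 and 11.82 in controls. NSDHL had 8.34, 8.24 and 8.26 under GDC-0941, against 8.57, 8.49 and 8.66 in controls. TM7SF2 had 11.28, 11.23 and 11.25 under GDC-0941, against 11.47, 11.38 and 11.52 in controls. No treated array of these genes reached the lowest control. The differences were -0.46 ± 0.05 for EBP (limma adjusted p = 8.24e-05), -0.30 ± 0.06 for NSDHL (limma adjusted p = 0.00388) and -0.20 ± 0.06 for TM7SF2 (limma adjusted p = 0.0238; SE, n = 3 each). EBP was called lower in 3 of its 4 probe sets and NSDHL in both of its own. The TM7SF2 call was lost without any of GDC-0941 replicates 2 and 3 and control replicates 1 and 3 (limma adjusted p 0.0598 to 0.0915). With the spiked-control centring TM7SF2 and NSDHL were no longer called (differences of -0.03 and -0.13), and EBP stayed called at -0.29.

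SQLE, squalene epoxidase, which limits the flow into sterols, had 11.42, 11.24 and 11.33 under GDC-0941, against 11.30, 11.31 and 11.34 in controls. The groups overlapped, with a difference of 0.01 and an interval of -0.12 to 0.15, although a dimmer probe set was called lower by 0.21. DHCR7, which catalyses a final step to cholesterol, had 11.34, 11.22 and 11.33 under GDC-0941, against 11.41, 11.36 and 11.44 in controls. Its treated arrays lay below the controls by a small margin, and the difference of -0.11 was not called (limma adjusted p = 0.225). HSD17B7, the reductase that follows NSDHL, differed by -0.16 (limma adjusted p = 0.0639). Its only probe set is one that the manufacturer marks as matching several transcripts. STARD4, a carrier that moves cholesterol between membranes, differed by 0.06 with an interval of -0.10 to 0.21.

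**Figure D2:**
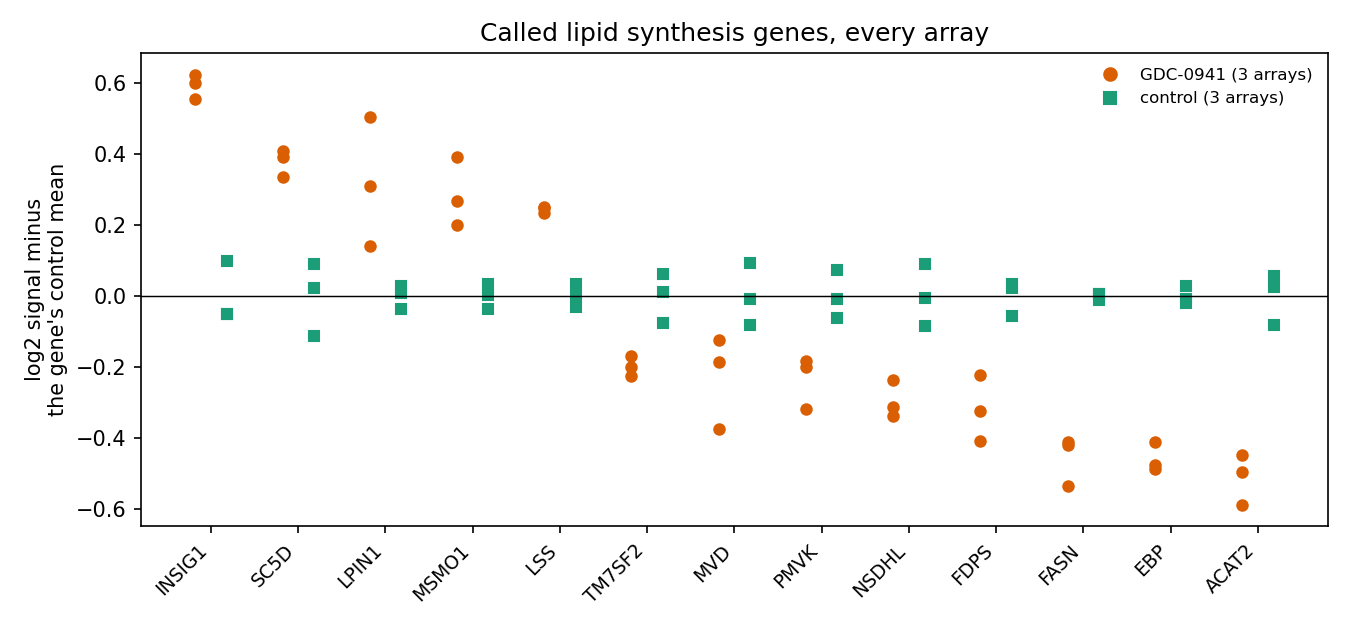
Log2 signal of each array minus the gene's control mean (y axis) for the 13 called genes, ordered from the largest rise to the largest fall. Circles are the 3 GDC-0941 arrays and squares the 3 control arrays. The groups are separate in every gene, and LPIN1 and MVD have the widest spread among treated arrays.

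Among the 11 measured fatty acid genes, LPIN1 rose, FASN fell and 9 were not called, a called share of 18.2% where 27.8% of all genes were called. The arrays did not overlap in 8 of the 11 (72.7%), against 41.5% of all genes. The calls were 3 higher and 1 lower with the spiked-control centring (36.4%, beside 33.3% of all genes). They were 1 higher and 3 lower with the mean of all probe sets (36.4%, beside 26.2% of all genes). Of the 10 genes above the median level, 1 was higher and 3 lower (40%, beside 54.6% of all such genes). FASN, the fatty acid synthase that assembles palmitate, had 12.60, 12.73 and 12.72 under GDC-0941, against 13.12, 13.14 and 13.14 in controls. The groups were far apart relative to their spread, and the difference was -0.45 ± 0.06 (SE, n = 3 each; limma adjusted p = 0.000123), 1.37-fold lower. The second, much dimmer probe set of FASN differed by 0.05 and was not called. The mean over both was lower by 0.20 and still called (limma adjusted p = 0.0472).

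LPIN1, the phosphatidate phosphatase lipin 1 that also acts on transcription, had 8.98, 8.62 and 8.79 under GDC-0941, against 8.49, 8.45 and 8.51 in controls. The treated arrays were all higher but spread over 0.36 on the log2 scale. The difference was 0.32 ± 0.08 (SE, n = 3 each; limma adjusted p = 0.0119), and the other probe sets of LPIN1 differed by 0.08 and 0.09 without passing. The mean over its 3 probe sets was higher by 0.16 (limma adjusted p = 0.0466), and the brightest was higher by 0.49 with the spiked-control centring.

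The enzymes that supply acetyl-CoA and NADPH did not pass. ACLY, ATP citrate lyase, had 12.83, 12.77 and 12.73 under GDC-0941, against 12.98, 12.85 and 12.89 in controls. These did not overlap, and the difference of -0.13 had an adjusted p of 0.129 in limma, but both other probe sets of ACLY were called lower, by 0.29 and 0.36. Averaged over its 3 probe sets ACLY was called lower by 0.26 (limma adjusted p = 0.00413). ACSS2, which activates acetate, differed by 0.02 and ME1, malic enzyme, by -0.05. ME1 was the one member with a level below the median gene.

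ACACA and ACACB, the acetyl-CoA carboxylases, were not called. ACACA, the cytosolic form, had 11.25, 11.14 and 11.24 under GDC-0941, against 11.27, 11.30 and 11.30 in controls. The difference was -0.08 with an interval of -0.20 to 0.05, and its second probe set differed by -0.07. ACACB, the form at the mitochondrial surface, differed by 0.05, and its 7 probe sets lay between -0.05 and 0.10.

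Among elongases and desaturases none of 4 was called. SCD, the stearoyl-CoA desaturase, had 12.91, 12.80 and 12.85 under GDC-0941, against 12.74, 12.72 and 12.74 in controls. The treated arrays were higher without overlap, and the difference of 0.12 had an adjusted p of 0.155 in limma, while its 3 other probe sets differed by -0.01 to 0.02. ELOVL5 and ELOVL6, elongases of polyunsaturated and saturated chains, differed by 0.07 and -0.13, and FADS2, a desaturase of polyunsaturated chains, by -0.11. A dimmer probe set of ELOVL6 was called lower by 0.36.

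The cholesterol genes, here called SREBF2-type, and the fatty acid genes, here called SREBF1-type, were compared as groups. The SREBF2-type genes counted 3 higher and 7 lower of 17 (58.8% called), and the SREBF1-type genes 1 higher and 1 lower of 11 (18.2% called), where 27.8% of all genes were called. The order of these shares depended on the scaling. With the spiked-control centring SREBF2-type genes counted 3 higher and 2 lower (29.4% called) and SREBF1-type genes 3 higher and 1 lower (36.4% called), beside 33.3% of all genes. Among genes above the median level, 70.6% of SREBF2-type and 40% of SREBF1-type genes were called, beside 54.6% of all such genes. The groups of arrays did not overlap in 76.5% of SREBF2-type and 72.7% of SREBF1-type genes, against 41.5% of all genes. The median log2 difference was -0.15 for SREBF2-type and -0.05 for SREBF1-type genes, beside -0.02 for all genes. The medians differed by -0.10, which is a description, since genes are not replicates. The same gap of -0.10 held with the spiked-control centring, which moved the medians to 0.02 for SREBF2-type and 0.12 for SREBF1-type genes. The SREBF1-type median was nearer to 0 without GDC-0941 replicate 1 (-0.01), control replicate 1 (-0.00) or control replicate 2 (-0.02), and the gap was then -0.11 to -0.16. The differences ranged from -0.51 to 0.38 in SREBF2-type genes and from -0.45 to 0.32 in SREBF1-type genes. By array, the median shift of the SREBF2-type genes from their control means was -0.08, -0.19 and -0.13 under GDC-0941, against -0.01, -0.03 and 0.04 in controls. For SREBF1-type genes it was -0.04, -0.06 and -0.03 under GDC-0941, against 0.01, -0.02 and 0.01 in controls. For all genes it was -0.040, -0.005 and -0.009 under GDC-0941, against -0.004, -0.008 and 0.013 in controls. In GDC-0941 replicate 1 the SREBF1-type shift (-0.0393) was thus no lower than that of all genes (-0.0403). The treated arrays were below the controls in both the SREBF2-type and SREBF1-type genes, and replicate 2 was the lowest treated array in each. That array was the lowest treated one for 24 of the 33 members (72.7%) and for 45.8% of all genes. Without it, 4 SREBF2-type genes were called lower in place of 7, and the count was also 4 without control replicate 3. Over all genes, 3090 were called lower with every array, 2554 without GDC-0941 replicate 2 and 2475 without control replicate 3. What part GDC-0941 replicate 2 has in these values was not tested.

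**Figure D3:**
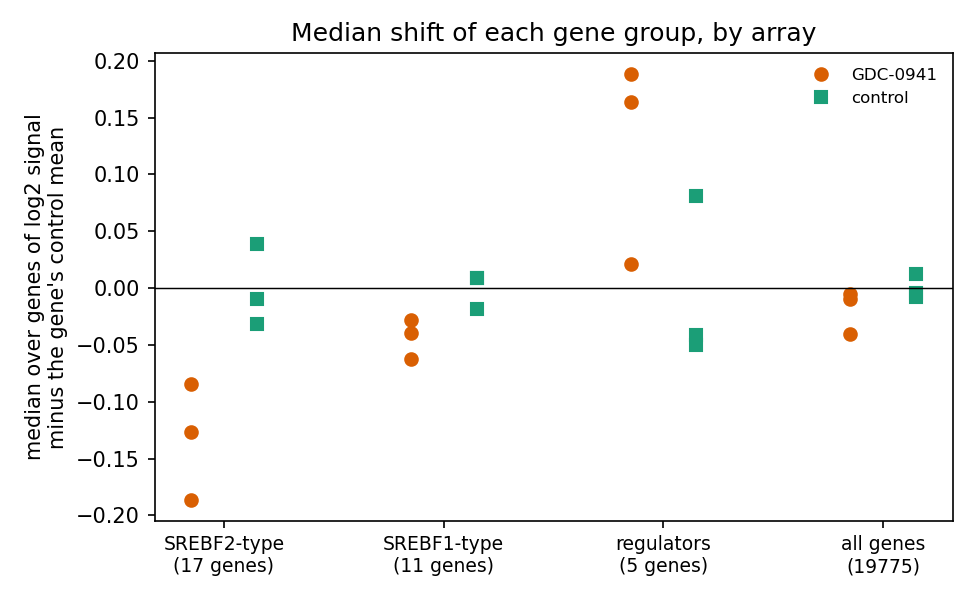
Median over the genes of a group of the log2 signal minus each gene's control mean (y axis), for each array. Circles are GDC-0941 and squares control arrays. The SREBF2-type genes lie lowest under GDC-0941, between -0.19 and -0.08, and the 5 regulators lie between 0.02 and 0.19.

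For 22 of the 33 genes the array carries more than 1 probe set, which gives a further reading of the same RNA. None of the 22 had probe sets called in opposite directions, but only 5 of them had 2 or more probe sets called at all. Of the 7 called genes with several probe sets, INSIG1, EBP and NSDHL had another one called the same way, and LSS, SC5D, FASN and LPIN1 did not. Of the 15 uncalled genes with several, 6 had another probe set called. These were MVK, SQLE, ACLY and ELOVL6 (lower) and IDI1 and SREBF2 (higher). The call of a member thus depends in part on which probe set reads it. Many of the called genes were read from a probe set marked as matching several transcripts. For ACAT2, PMVK, MVD and TM7SF2 it was the only probe set. NSDHL, EBP, SC5D, INSIG1 and FASN were also read from a marked probe set, but have others.

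**Figure D4:**
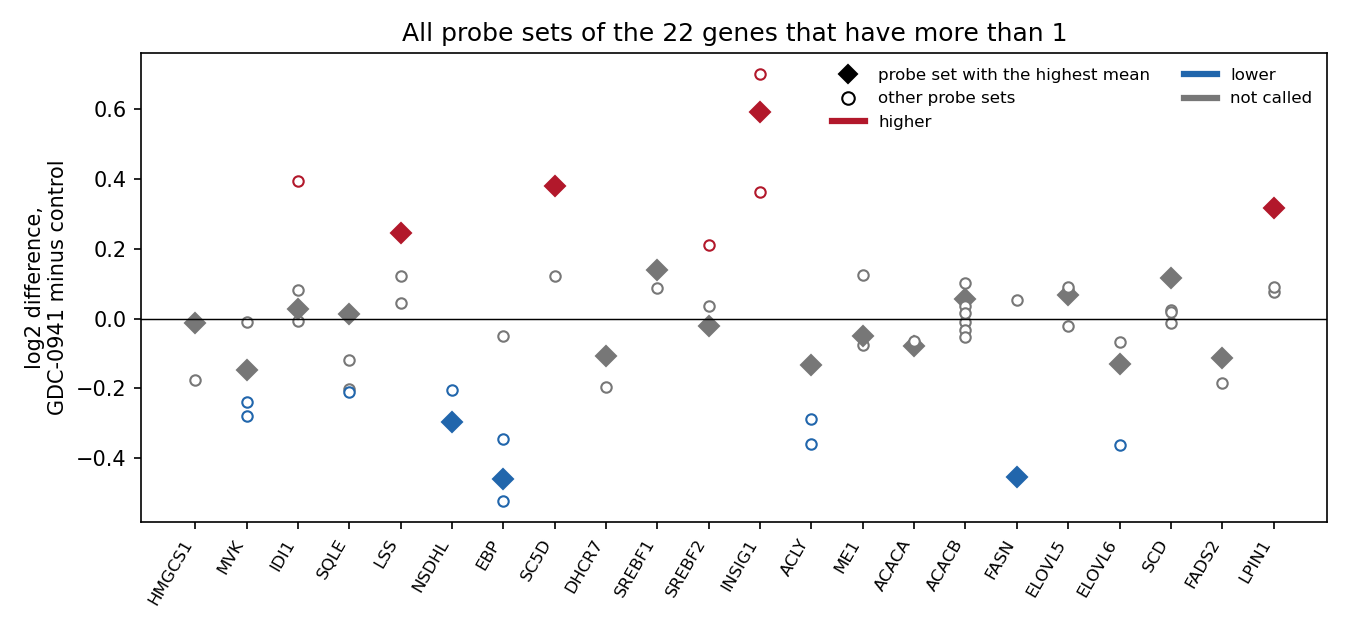
Log2 difference (GDC-0941 minus control, y axis) of every probe set of the 22 genes with more than 1. Diamonds are the probe sets used for the gene and open circles the others, with red for higher, blue for lower and grey for not called in limma among all 54613 probe sets. No gene has both red and blue marks, and only 5 genes have 2 or more marks that are red or blue.

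Around these pathways, 6 further lists held 75 genes, of which 69 were measured, 16 higher and 12 lower, with 40.6% called, beside 27.8% of all genes, and a median difference of -0.04. This balance depended on the scaling, since 25 were higher and 2 lower with the spiked-control centring, with a median of 0.13. Among the 57 of these genes above the median level, 52.6% were called, about the 54.6% of all such genes. Genes of sterol efflux, storage and transport had 5 higher and none lower of 10 (beside 27.8% called and 12.1% called higher among all genes), with a median of 0.20. With the spiked-control centring 8 were higher with a median of 0.36, and with unmarked probe sets taken first 4 were higher with a median of 0.12. ABCA1, the cholesterol exporter under LXR control, had 7.67, 7.65 and 7.61 under GDC-0941, against 6.78, 6.57 and 6.60 in controls, a rise of 0.99 ± 0.07 (SE, n = 3 each; limma adjusted p = 1.6e-06). This was larger than any change among the cholesterol and fatty acid genes, and no array overlapped. SOAT1, which esterifies cholesterol for storage, rose by 0.56 (limma adjusted p = 4.79e-05), and NPC1, which lets cholesterol out of lysosomes, by 0.37 (limma adjusted p = 0.00178). Averaged over its probe sets SOAT1 differed by 0.14 and was not called (limma adjusted p = 0.0675).

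Of 7 measured genes of SREBP processing and sterol-regulated degradation 4 rose and 1 fell (71.4% called, beside 27.8% of all genes), with a median of 0.19. UBE2G2, a ubiquitin-conjugating enzyme of the endoplasmic reticulum, fell by 0.36 (limma adjusted p = 0.0026) and was not called with the spiked-control centring (-0.19) or from an unmarked probe set, one not marked as matching several transcripts (-0.01). ERLIN2, which acts in the sterol-dependent degradation there, rose by 0.30 (limma adjusted p = 0.00273), and MBTPS1, the protease of the first SREBP cleavage, by 0.25 (limma adjusted p = 0.00982). The ERLIN2 call was lost with an unmarked probe set (limma adjusted p = 0.0536), and the MBTPS1 call without GDC-0941 replicate 3 (limma adjusted p = 0.0592). The count of genes that rose in this list was 1 to 4 when single arrays were left out, with 1 higher without GDC-0941 replicate 3, 2 without GDC-0941 replicate 1 or control replicates 1 or 2, and 2 with unmarked probe sets taken first.

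In the isoprenoid branches that leave the pathway before sterols, 2 of 9 genes rose and 4 fell (66.7% called, beside 27.8% of all genes). Their median of -0.10 turned to 0.07 with the spiked-control centring. FNTB, a farnesyltransferase subunit, rose by 0.59 (limma adjusted p = 0.000135). PDSS1 and PDSS2, the subunits that build the tail of coenzyme Q, fell by 0.45 (limma adjusted p = 0.000681) and by 0.32 (limma adjusted p = 0.00374). An unmarked probe set of PDSS1 differed by -0.01, and PDSS2 was not called with the spiked-control centring (-0.15) or averaged over its probe sets (-0.11).

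Of 14 other genes of fatty acid synthesis, elongation and desaturation, 2 were higher and 5 lower (50% called, beside 27.8% of all genes). Their median of -0.11 turned to 0.06 with the spiked-control centring, where none was called lower. THRSP, a nuclear protein linked to lipogenesis, had 9.24, 9.04 and 9.07 under GDC-0941, against 8.28, 8.32 and 8.45 in controls. It rose by 0.77 (limma adjusted p = 1.41e-05) with no overlap, opposite to FASN. SLC25A1, the mitochondrial citrate exporter, fell by 0.40 (limma adjusted p = 0.000245), and TECR, a reductase of chain elongation, by 0.30 (limma adjusted p = 0.0137). An unmarked probe set of TECR differed by 0.12 and was not called, the opposite direction.

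Among 11 acyl-CoA synthetases and glycerolipid enzymes, ACSL1 alone was called, a share of 9.09% beside 27.8% of all genes. With the spiked-control centring 2 were higher (18.2%, beside 33.3% of all genes), and the median of -0.05 turned to 0.12. The mean of all probe sets gave 2 higher of 11 (18.2%, beside 26.2% of all genes). Genes above the median level gave 2 higher of 7 (28.6%, beside 54.6% of all such genes). ACSL1, which activates long-chain fatty acids, had 11.77, 11.65 and 11.67 under GDC-0941, against 10.89, 10.85 and 10.91 in controls. The arrays were well separated, with a rise of 0.81 ± 0.06 (SE, n = 3 each; limma adjusted p = 2.32e-06). Of 18 genes of fatty acid oxidation 2 rose and 2 fell (22.2% called, beside 27.8% of all genes). Their median of -0.05 turned to 0.12 with the spiked-control centring. The counts were 1 higher and 4 lower without GDC-0941 replicate 1, and 1 higher and 2 lower without GDC-0941 replicate 3 or control replicates 1 or 2. ACADM, a medium-chain dehydrogenase, rose by 0.49 (limma adjusted p = 8.59e-05). ETFB, which takes up its electrons, fell by 0.49 (limma adjusted p = 0.000164), and SLC25A20, the carnitine carrier, by 0.26 (limma adjusted p = 0.00619), which was not called with the spiked-control centring (-0.09).

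Over all probe sets the arrays correlated at 0.997 to 0.998 within groups and at 0.992 to 0.994 between groups. Each pair within a group thus correlated more closely than any pair between groups. The luminal markers GATA3, FOXA1, KRT8, KRT18, KRT19, XBP1, EPCAM and SPDEF had log2 signals of 11.68 to 14.32 under GDC-0941 and 11.57 to 14.36 in controls, above the median gene at 8.20. Of these 8, FOXA1 rose by 0.53 (limma adjusted p = 3.03e-05) and XBP1 by 0.32 (limma adjusted p = 0.00101). KRT8 fell by 0.23 (limma adjusted p = 0.00733) and KRT18 by 0.21 (limma adjusted p = 0.0128), and neither keratin was called with the spiked-control centring (-0.06 and -0.04). The 8 markers of basal, stromal, endothelial and immune cells lay between 6.00 and 11.03 under GDC-0941 and between 6.12 and 10.47 in controls, with COL1A1 the highest. COL1A1 rose by 0.56 (limma adjusted p = 6.53e-05), and the other 7 were not called. Their part in the results above was not tested. In bulk RNA, fewer cells of a kind and less RNA per cell cannot be told apart.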

How the data were processed

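RNA of 6 T47D samples was measured on oligonucleotide arrays, 3 treated with GDC-0941 and 3 controls. The deposited table holds log2 values for 54675 probe sets. Per the submitters' processing notes the authors used RMA, which corrects background, normalizes between arrays and summarises each probe set. No version is named there, and values of 3.00 to 14.81 show the log2 scale. Such values are relative to the other arrays and carry no detection call.

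Among 54613 probe sets that are not manufacturer's controls, 41091 name 1 gene, 1801 several and 11721 none in the platform annotation. The Entrez identifier gave a current symbol for 41037 of them in the RefSeq table of GRCh38.p14. A gene was read from its probe set with the highest mean over 6 arrays, giving 19775 genes.

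GDC-0941 was set against control in limma 3.58.1 under R 4.3.3 (lmFit, eBayes, two-sided, no block). Genes with a Benjamini-Hochberg adjusted p under 0.05 over the whole table were called. The fit was tested on simulated data. The precision is limited by 3 arrays per group, and the median standard error was 0.0641. All called members were described per array, with the 5 regulators and fixed enzymes of each branch, and the 3 called genes with the largest change were named from each further list. MVK, IDI1, the THRSP arrays and the markers called were added after their values were seen. The members and lists were chosen with earlier results of these data known.

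The alternatives tried were leaving out single arrays, a block on the replicate number, a repeated quantile normalization, centring by array median or by 18 hybridisation controls, a variance trend, array weights, genes above the median level, other probe set rules and an adjusted p under 0.01. In the group comparison INSIG1 was also counted with the SREBF2-type genes. That raised their median and narrowed its gap to the SREBF1-type median. Same-numbered arrays were not treated as pairs, because their deviations from the group means correlated at -0.346 to 0.187. Figures were drawn with matplotlib 3.10.9.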

Additional observations from a re-analysis of the deposited data

How the results depend on the processing

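Of the 13 called members, ACAT2, MSMO1, EBP, INSIG1 and FASN were called in the same direction under all 16 alternatives, and 10 of the 13 without each array in turn. ACAT2 and MSMO1 have 1 probe set each, so the other probe set rules gave them the same reading. FASN has no unmarked probe set, so taking unmarked ones first could not change its reading either. The calls of MVD and TM7SF2 were each lost in 6 alternatives, that of PMVK in 4, and those of FDPS, NSDHL, LSS, SC5D and LPIN1 in 1 each. Of the 20 uncalled members, 9 were called in 1 or more alternatives. Without single arrays, 5 to 9 members were called lower, the median of SREBF2-type genes was -0.160 to -0.128, that of SREBF1-type genes -0.0599 to -0.0024, and their gap -0.157 to -0.0869. Centred on hybridisation controls, 9 members were higher and 3 lower, and the medians reversed to 0.0234 (SREBF2-type) and 0.1203 (SREBF1-type), since that scaling shifts each array as a whole. Genes above the median level gave an SREBF1-type median of -0.0312, and the mean of all probe sets gave -0.0001 with a gap of -0.1645 (the cause was not tested). At an adjusted p under 0.01, 5 members were lower, and LSS, MSMO1, SC5D and INSIG1 were higher, where 18.7% of all genes were called. The replicate block left 13 members called, 5 higher and 8 lower, and changed no member's call. The replicate number was not shown to pair the arrays, and GDC-0941 replicate 1 deviated most like control replicate 3 (r = 0.39). Differences much under 0.2 on the log2 scale were mostly not detectable with 3 arrays per group.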
